A study of Mus musculus with 12 samples.

Results

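The genes encoding the protein components of the cytosolic ribosome were followed in liver and in skin CX3CR1+ cells of mice treated with vehicle or with carbon tetrachloride (CCl4), a chemical widely used to damage the liver in experiments. Members were chosen by name alone: protein-coding mouse symbols beginning with Rpl or Rps and a number, the 3 stalk genes Rplp0, Rplp1 and Rplp2, and Rpsa. The rule found 83 genes of 57180 in the table, made up of 43 large-subunit genes, 31 small-subunit genes, the 3 stalk genes and 6 paralogs (Rpl3l, Rpl7l1, Rpl10l, Rpl22l1, Rpl39l and Rps27l). Each of 4 groups held 3 libraries. The liver groups, CCl4 and vehicle, came from C57 mice and were sequenced as bulk RNA. The sample labels call this material liver, whereas the submitters' design text speaks of hepatocytes. Both skin groups came from Cx3cr1-creER:Ai9 mice, in which an inducible Cre driven from the Cx3cr1 locus switches on a red fluorescent reporter, so the vehicle mice carried both alleles too. CX3CR1 is the fractalkine receptor of monocytes, macrophages and some other immune cells, and dorsal skin CX3CR1+ cells were profiled by smart-seq, which amplifies whole cDNAs from little RNA. The sources used here state no CCl4 dose, time after treatment, sex, age or Cre inducer.

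A ribosome joins a small subunit, which reads the mRNA, and a large subunit, which forms the peptide bond, and most of its proteins are needed in 1 copy each. Their mRNAs are among the most abundant of a cell, begin with a tract of pyrimidines known as the 5' TOP motif, and are controlled mainly at translation through mTOR and LARP1. In liver, ribosome production is known to rise with growth and regeneration. Almost every member also has processed pseudogenes, reverse-transcribed copies of the mature mRNA inserted elsewhere in the genome, so short reads from a member can be assigned to a copy and the reverse.

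The coding sequences in the 2 sets that follow show how near a paralog and a copy can be. They were read from GENCODE M21 transcripts (GRCm38). Rps27, on chromosome 3, and its paralog Rps27l, on chromosome 9, encode a zinc-finger protein of the small subunit. Over 255 aligned coding bases they differ at 61 (76.1% identity), shown as capitals in Rps27l.
Rps27: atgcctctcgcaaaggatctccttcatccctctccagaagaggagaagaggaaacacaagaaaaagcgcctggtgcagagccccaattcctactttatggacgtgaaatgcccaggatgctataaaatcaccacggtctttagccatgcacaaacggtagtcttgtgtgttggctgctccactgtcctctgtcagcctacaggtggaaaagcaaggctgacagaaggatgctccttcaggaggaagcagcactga
Rps27l: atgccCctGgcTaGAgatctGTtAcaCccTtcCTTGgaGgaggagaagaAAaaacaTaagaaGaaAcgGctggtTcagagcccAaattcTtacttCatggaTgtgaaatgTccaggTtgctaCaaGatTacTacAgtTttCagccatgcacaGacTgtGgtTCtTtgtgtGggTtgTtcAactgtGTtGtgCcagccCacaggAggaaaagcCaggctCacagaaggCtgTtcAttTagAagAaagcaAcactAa
The intronless copy Rps27rt, on chromosome 9, has the coding sequence of Rps27 with 0 differing bases of 255, and Rpl10-ps3 has that of Rpl10 with 0 of 645. Within those stretches no read can tell the copy from its source. Rpl39, on chromosome X, and Rpl39l, on chromosome 16, encode one of the shortest large-subunit proteins and differ at 23 of 156 bases (85.3% identity), again in capitals.
Rpl39: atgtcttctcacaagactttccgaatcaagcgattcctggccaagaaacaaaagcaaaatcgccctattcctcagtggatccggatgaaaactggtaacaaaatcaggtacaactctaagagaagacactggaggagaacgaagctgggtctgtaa
Rpl39l: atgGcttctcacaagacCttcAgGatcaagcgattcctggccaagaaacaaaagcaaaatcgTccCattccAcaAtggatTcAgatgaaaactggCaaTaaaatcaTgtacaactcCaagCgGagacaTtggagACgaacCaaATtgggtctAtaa
Rpl22 and Rpl22l1 had 71.2% identity over 368 aligned coding bases, and Rpl7 and Rpl7l1 had 61.8% over 728, so these pairs are the more distinct.

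Promoters were taken from RefSeq windows on GRCm38.p6, each running from 250 bases before to 50 after a gene's start. Of the 83 members, 63 had such a window and gave 75 in all. Those without one included Rpl3, Rpl7, Rpl8, Rpl17, Rpl21, Rpl23a, Rpl29, Rpl30, Rpl32, Rpl36, Rplp1, Rps14, Rps20, Rps27a and Rps29. Strings were searched on both strands. The ETS-type core CCGGAAG was in 27 of 75 member windows (36.0%) and in 8.9% of all 32851 windows. The YY1-type core AAGATGG, which can share 3 letters with it, was in 12 (16.0%, against 6.3%), and the GC box GGGCGG in 45 (60.0%, against 35.7%). The TATA box string TATAAA was in 7 (9.3%, against 13.6%). A C followed by at least 6 pyrimidines, on the gene's strand and from 20 bases before to 50 after the start, was in 53 of 75 member windows (70.7%, against 29.5%). These shares are descriptions of letters, not of binding. The 120 bases before the start are shown for the 3 members called higher in liver when each was read against the sum of all members and copies (Rpl12, Rps12 and Rplp2), and for the 2 lowest by their own rows, Rps2 and Rpl10, with the strings named above in capitals.
Rpl12: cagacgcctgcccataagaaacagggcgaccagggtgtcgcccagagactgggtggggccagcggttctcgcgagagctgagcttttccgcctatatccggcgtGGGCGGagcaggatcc
Rps12: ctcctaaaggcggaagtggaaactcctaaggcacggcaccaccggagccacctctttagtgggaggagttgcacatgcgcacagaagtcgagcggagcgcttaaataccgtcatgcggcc
Rplp2: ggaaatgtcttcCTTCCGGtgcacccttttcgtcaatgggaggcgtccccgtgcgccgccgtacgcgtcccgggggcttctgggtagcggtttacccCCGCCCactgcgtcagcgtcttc
Rps2: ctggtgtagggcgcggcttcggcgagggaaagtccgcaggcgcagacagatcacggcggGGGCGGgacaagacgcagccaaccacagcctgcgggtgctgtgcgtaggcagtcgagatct
Rpl10: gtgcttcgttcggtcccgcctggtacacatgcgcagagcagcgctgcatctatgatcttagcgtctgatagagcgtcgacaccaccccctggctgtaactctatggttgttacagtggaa
The windows lie on GRCm38.p6 at chr2:32961592-32961711 (plus strand) for Rpl12, chr10:23787210-23787329 (minus strand) for Rps12, chr7:141447531-141447650 (plus) for Rplp2, chr17:24719943-24720062 (plus) for Rps2 and chrX:74270696-74270815 (plus) for Rpl10. Those of Rpl12 and Rps2 held a GC box, that of Rplp2 a GC box and an ETS-type core, and those of Rps12 and Rpl10 none of these strings.

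Values are TPM, transcript abundances per length that sum to the same total in every library and hold no read depth, so depth is unknown. Mitochondrially encoded genes and 11 near-copy pseudogenes of them took 25.7% to 28.4% of the deposited TPM of vehicle livers and 68.1% to 82.1% of CCl4 livers, against 0.843% to 4.66% in skin. All levels given here are therefore TPM rescaled to that same total without those genes (rescaled TPM). Among skin libraries, the library labelled CCl4 replicate 3 went against its CX3CR1+ label: its 15 macrophage and monocyte markers summed to 327 rescaled TPM, against 8653 to 26610 in the other 5, and its 7 Langerhans and dendritic cell markers to 182, against 13450 to 49690. Cd74, an MHC class II chaperone, was at 45.4 there and at 8509.8 or more in the others. Cx3cr1 itself was at or below 5.52 in all 6 skin libraries, and listed at 0 in CCl4 replicate 2. Skin counts and medians, and the members described first, are also given without CCl4 replicate 3. The skin libraries numbered 1 in the vehicle and CCl4 groups were more alike (Pearson r 0.97 over genes) than any skin libraries of 1 group.

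In liver, ribosomal protein mRNAs took a larger part of the non-mitochondrial transcripts after CCl4, and a smaller part of all deposited TPM, of which mitochondrial genes and their copies then made up most. The 83 members summed to 3.03, 2.96 and 3.09% of non-mitochondrial TPM in vehicle replicates 1 to 3 (mean 3.02 ± 0.066, SD, n = 3) and to 6.50, 7.34 and 5.55% in CCl4 replicates 1 to 3 (mean 6.46 ± 0.90, SD, n = 3). The groups did not overlap, and the vehicle livers lay far closer together than the CCl4 livers. On this scale 79 of the 80 members that passed the filter were called higher and 0 lower (limma, adjusted p under 0.05), but so were 67.8% of all 12582 genes tested, with 3.58% lower. Rpl10 was the member not called, and Rpl3l, Rpl10l and Rpl39l did not pass the filter of at least 1 in at least 3 of 6 libraries. Their median log2 difference was 1.13 (quartiles 1.01 to 1.24), beside 0.90 over all genes tested (quartiles 0.41 to 1.45). In 79 of 80 members every CCl4 library lay above every vehicle library, which held for 72.8% of all genes tested. Pseudogene copies moved alongside, from 0.605% to 0.624% of non-mitochondrial TPM with vehicle to 1.15% to 1.72% with CCl4.

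**Figure D1:**
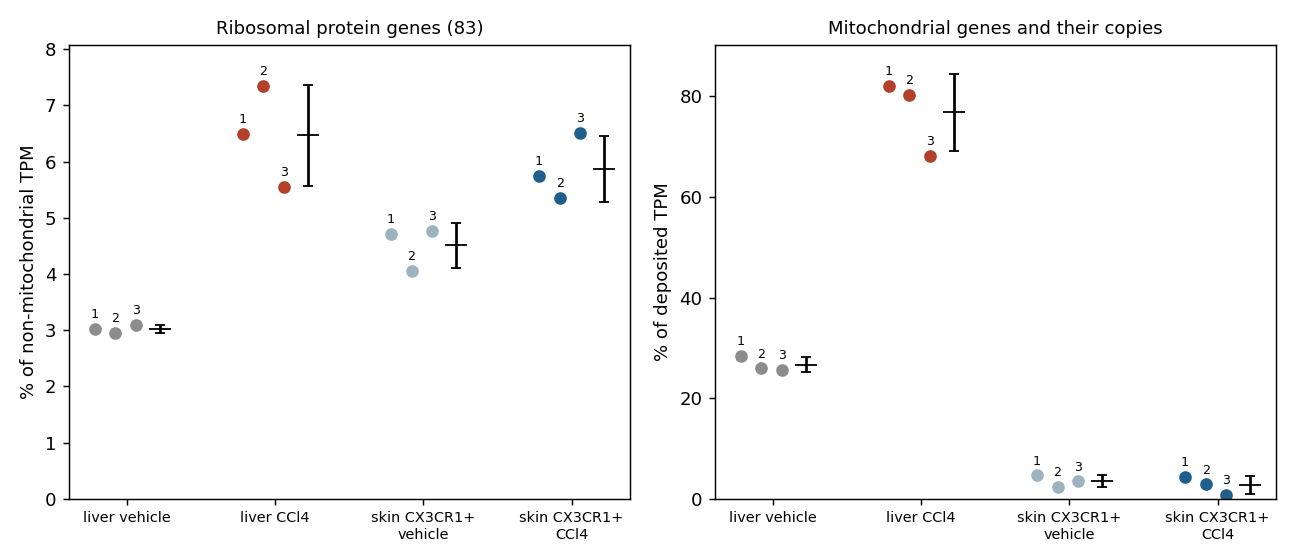
Left, the summed TPM of 83 ribosomal protein genes as a percentage of non-mitochondrial TPM in each of 12 libraries; right, mitochondrially encoded genes and their copies as a percentage of deposited TPM. Points are libraries with their replicate number, bars mean ± SD (n = 3); the ribosomal protein share lay between 2.96% and 3.09% in vehicle livers and between 5.55% and 7.34% in CCl4 livers, while as a part of all deposited TPM it was lower with CCl4, at 1.16% to 1.77% against 2.17% to 2.29%.

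The direction in liver turned with the scale. As a percentage of the deposited TPM, mitochondrial genes included, the members were at 2.17, 2.19 and 2.29 with vehicle and at 1.16, 1.45 and 1.77 with CCl4. Tested on the deposited values, 1 member was called higher and 13 lower, against 10.3% and 51.1% of all genes, and their median was -0.58, beside -0.59 over all genes. With median-ratio scaling, which centres libraries on the median ratio of their genes, 5 members were called higher, 3 lower and 72 not, against 21.1% higher and 22.6% lower of all genes, and their median was 0.04. Read that way, most members had no called difference, and their quartiles were -0.08 and 0.15. Quantile normalization, which gives every library 1 distribution of values, put the members high again: 74 were called higher and 1 lower, against 18% and 24.8% of all genes, with a median of 0.81 beside -0.18. Leaving out mt- genes only, 7 members were called higher and 1 lower, against 23.9% and 14.7% of all genes; leaving out the top 10 genes of each library on top of the mitochondrial genes and their copies, 73 and 1, against 50.7% and 6.64%. With the members' sum held equal, 7 were called higher and 4 lower, against 20.9% and 21.4% of all genes. The members lay close together: with median-ratio scaling their SD was 0.33, against 1.15 over all genes tested. This was not particular to them. Relative to the non-mitochondrial total the SD was 0.32 for the members and 0.35 for 78 mitochondrial ribosomal protein genes. It was 0.33 for 4 ribosomal protein genes outside the naming rule, 0.47 for other TOP mRNAs, 0.51 for biogenesis factors and 0.73 for regulators of ribosomal protein synthesis. Large-subunit, small-subunit and stalk genes had medians of 1.16, 1.12 and 1.13 relative to the non-mitochondrial total, and 0.07, 0.03 and 0.04 with median-ratio scaling.

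**Figure D2:**
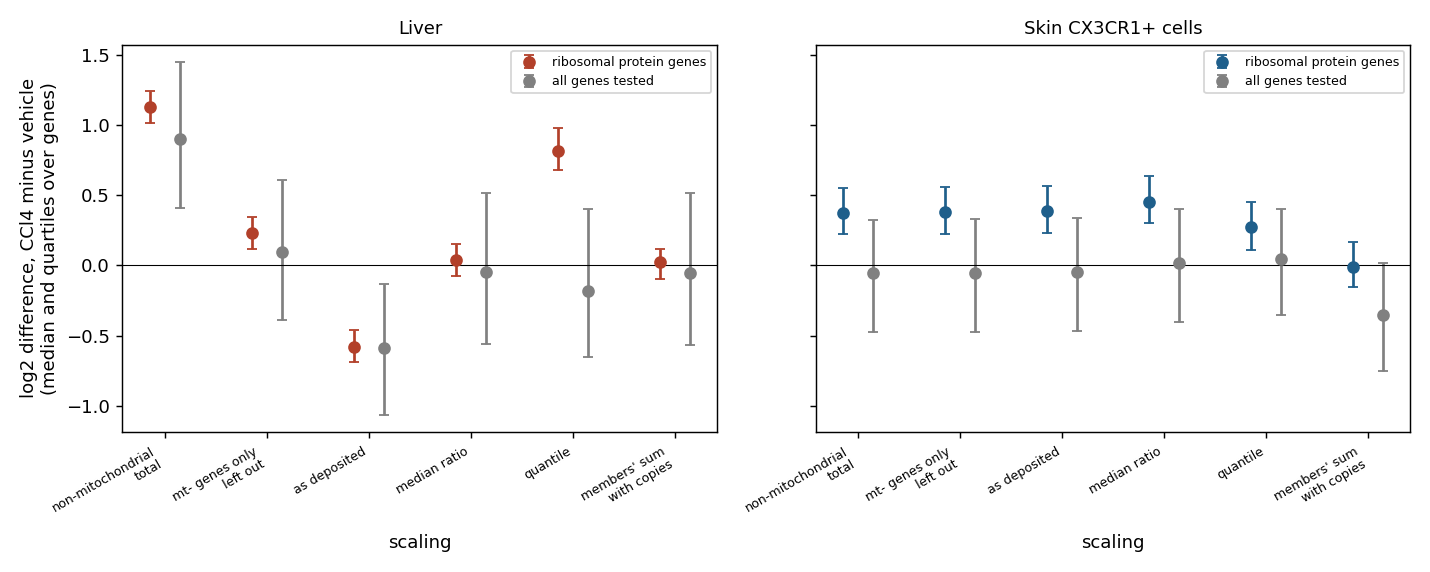
Median and quartiles over genes of the log2 difference, CCl4 minus vehicle, for ribosomal protein genes (coloured) and all genes tested (grey) under 6 scalings, in liver and in skin CX3CR1+ cells. In liver the members' median ran from -0.58 as deposited to 1.13 relative to the non-mitochondrial total and was 0.04 with median-ratio scaling. In skin it was 0.38 relative to the non-mitochondrial total and -0.01 where the members' sum with copies was held equal. Holding that sum equal takes out a shared difference by construction.

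Cell type markers moved with the liver groups. The 15 macrophage and monocyte markers summed to 44.9, 98.2 and 66.7 rescaled TPM with vehicle and to 2593, 3295 and 618 with CCl4, in the same order of CCl4 libraries as the members' share. All 14 tested were called higher, against 67.8% of all genes tested. Sums of 8 sinusoidal endothelial markers were 36.0 to 48.5 with vehicle and 518 to 2753 with CCl4, those of 9 stellate cell and fibroblast markers 12.3 to 17.0 and 298 to 1019, and those of 8 neutrophil markers 0.162 to 1.20, with 2 listed at 0 in all vehicle livers, and 104 to 1783. The 12 hepatocyte markers, which check the tissue label, summed to 139200, 148200 and 144500 with vehicle and 111300, 113800 and 143100 with CCl4, replicate 3 being the one within reach of the vehicle livers. All were at 1 or more in every liver. Of these 12, 5 were called lower relative to the non-mitochondrial total and 12 with median-ratio scaling, against 3.58% and 22.6% of all genes tested. Cell cycle genes (14) summed to 33.8 to 38.3 with vehicle and to 391 to 413 with CCl4. The part of these in the members' differences was not tested. In bulk tissue, a change in the number of cells of a type and a change in RNA per cell cannot be told apart.

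The stalk proteins recruit elongation factors to the large subunit. Rplp0, their anchor, was at 289.8, 282 and 298 with vehicle and 672, 548 and 566 with CCl4 (log2 difference 1.03, SE 0.13, adjusted p = 0.000924, and -0.06, adjusted p = 0.814 with median-ratio scaling). Rplp1 was at 626, 657 and 683 with vehicle and 1381, 1612 and 1314 with CCl4, and its median-ratio difference was 0.04 (adjusted p = 0.873). Rplp2 stood apart from both: it was at 181, 183 and 199 with vehicle and 544, 918 and 517 with CCl4, a log2 difference of 1.76 (SE 0.23, adjusted p = 0.000997), and it was also called higher with median-ratio scaling, at 0.67 (adjusted p = 0.0351). CCl4 replicate 2 was its highest library.

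Rpl12, which sits at the base of the stalk, had the largest log2 difference of all members. Its row was low for a ribosomal protein gene, at 6.66, 7.91 and 9.75 with vehicle and 47.9, 49.1 and 35.7 with CCl4, whereas the median member was at 315 with vehicle and 682 with CCl4. The difference was 2.31 (SE 0.20, adjusted p = 0.000454), was called higher with median-ratio scaling at 1.29 (adjusted p = 0.00208), and was the 1 member difference called higher as deposited, at 0.65 (adjusted p = 0.0294). Adding its near copies changed little in liver, at 7.34, 7.91 and 10.2 with vehicle and 47.9, 56.9 and 36.6 with CCl4.

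Rps12, a small-subunit protein at the head of the subunit, came next, at 159.6, 165 and 181 with vehicle and 637, 886 and 524 with CCl4. Its log2 difference was 1.98 (SE 0.20, adjusted p = 0.000631), and 0.89 (adjusted p = 0.00691) with median-ratio scaling. With copies added the levels were 289, 299 and 301 with vehicle and 1082, 1528 and 905 with CCl4, a difference of 1.95 (SE 0.20, adjusted p = 0.000607). Rps20, another small-subunit head protein, was at 119, 103 and 129 with vehicle and 329, 508 and 289 with CCl4, with a difference of 1.63 (SE 0.22, adjusted p = 0.00112) and 0.55 (adjusted p = 0.0668) with median-ratio scaling, so its call was lost. In Rpl12, Rps12, Rplp2 and Rps20 every CCl4 library lay above every vehicle library, as in 79 of 80 members and 72.8% of all genes tested. In all 4, replicate 2 was highest and replicate 3 lowest, which was also the order of the members' summed share.

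Rpl5 and Rpl11 carry the 5S ribosomal RNA into the large subunit and can bind MDM2, the p53 inhibitor. The row of Rpl5 was at 14.4, 11.2 and 13.0 with vehicle and 47.7, 56.4 and 37.8 with CCl4, a log2 difference of 1.79 (SE 0.19, adjusted p = 0.000682). Its 10 near copies held 89.5% of the summed level with vehicle and 81.4% with CCl4, and with them the levels were 135, 125 and 107 with vehicle and 266, 279.6 and 217 with CCl4 and the difference 1.05 (SE 0.15, adjusted p = 0.00132). Rpl5 thus stood high by its own row and near the members' median of 1.13 with its copies. Rpl11 was at 386, 365 and 381 with vehicle and 673, 747 and 645 with CCl4, with 0.86 (SE 0.12, adjusted p = 0.00113) and -0.23 (adjusted p = 0.276) with median-ratio scaling. Mdm2, from the list of regulators, was at 9.09, 9.14 and 6.95 with vehicle and 46.2, 49.3 and 39.2 with CCl4 (2.29, SE 0.17, adjusted p = 0.000312; median-ratio 1.26, adjusted p = 0.00169).

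Rpl10 joins the large subunit in a late step of its assembly and was the lowest member by its own row, at 338, 392 and 380.4 with vehicle and 376, 320.4 and 367 with CCl4, with groups that overlapped and a difference of -0.06 (SE 0.13, adjusted p = 0.672). It was called lower with median-ratio scaling, at -1.15 (adjusted p = 0.00352), as deposited, at -1.76 (adjusted p = 0.00117), and with quantile normalization, at -0.45 (adjusted p = 0.0334). The level of its copy Rpl10-ps3, whose coding bases match it in full, was 539, 544 and 571 with vehicle and 1399, 1287 and 1189 with CCl4. The 17 near copies together held 59.9% of the summed level with vehicle and 78.6% with CCl4. With them added the levels were 878, 937 and 953 with vehicle and 1788, 1610.2 and 1559 with CCl4 and the difference was 0.84 (SE 0.12, adjusted p = 0.0013), so the value of Rpl10 alone is uncertain. Rps27 also stood higher once its copies were counted: its row was at 986, 1009.7 and 989.6 with vehicle and 1585, 1611 and 1369.8 with CCl4 (0.61, SE 0.12, adjusted p = 0.00406; median-ratio -0.48, adjusted p = 0.039), and with copies, Rps27rt among them, at 1002, 1031 and 1002 with vehicle and 2274, 2630.4 and 1599 with CCl4 (1.07, SE 0.19, adjusted p = 0.00266).

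Rps2, which lines the path of the mRNA into the small subunit, was among the lowest members with or without copies. It was at 839, 884 and 901 with vehicle and 1309, 1060.4 and 1195 with CCl4, a difference of 0.44 (SE 0.13, adjusted p = 0.0185) relative to the non-mitochondrial total, and was called lower with median-ratio scaling, at -0.65 (adjusted p = 0.0283), and as deposited, at -1.27 (adjusted p = 0.00575). Rps27l, the paralog of Rps27 and a known p53 target, was at 557, 527 and 564 with vehicle and 749, 644 and 854 with CCl4, with 0.44 (SE 0.14, adjusted p = 0.0249) and -0.65 (adjusted p = 0.0506) with median-ratio scaling. Rpl7l1, a nucleolar relative of Rpl7, was low, at 27.2, 29.7 and 27.9 with vehicle and 48.2, 31.7 and 43.1 with CCl4 (0.50, SE 0.18, adjusted p = 0.038; median-ratio -0.56, adjusted p = 0.078). Rpl7 itself was at 322, 294 and 318 with vehicle and 692, 636 and 535 with CCl4 (0.99, SE 0.14, adjusted p = 0.00119). The calls of Rps2 and Rps27l as higher relative to the non-mitochondrial total were lost without any 1 vehicle library (adjusted p = 0.0589 to 0.0865, limma), that of Rps27l also without CCl4 replicate 1 (adjusted p = 0.0562), and that of Rpl7l1 without any 1 library but CCl4 replicate 2 (adjusted p = 0.0769 to 0.114).

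The other paralogs went different ways. Rpl22l1 was at 139.8, 147 and 146 with vehicle and 491, 423 and 385 with CCl4, a difference of 1.57 (SE 0.13, adjusted p = 0.000426), and it was called higher with median-ratio scaling, at 0.49 (adjusted p = 0.0364). Rpl22, whose protein is known to repress Rpl22l1, was at 289, 273 and 292 with vehicle and 653, 789 and 558 with CCl4 (1.21, SE 0.15, adjusted p = 0.000964; median-ratio 0.12, adjusted p = 0.55). The ratio of Rpl22l1 to Rpl22 was 0.484, 0.539 and 0.498 with vehicle and 0.753, 0.536 and 0.690 with CCl4, and the groups overlapped (two-sided exact permutation p = 0.20, adjusted 0.60 over 6 paralog ratios, n = 3 per group). The ratio of Rpl7l1 to Rpl7 was 0.0846, 0.101 and 0.0876 with vehicle and 0.0696, 0.0498 and 0.0805 with CCl4, without overlap, at the smallest exact permutation p that 3 libraries against 3 can give, 0.1 (adjusted 0.60). Rpl39l, best known from testis, was listed at 0, 0.108 and 0 with vehicle and at 0, 0.911 and 0.188 with CCl4, beside Rpl39 at 182, 197 and 193 with vehicle and 449, 554 and 354 with CCl4. The muscle paralog Rpl3l reached at most 0.209 in liver, beside Rpl3 at up to 216 with vehicle and at 417 or more with CCl4, and the testis paralog Rpl10l was listed at 0 in all 6 livers.

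By mean over the 6 livers, the most abundant members were Rpl41, Rps24, Rps15 and Rpl23a. Rpl41, which encodes the shortest protein of the ribosome, was at 917, 875 and 938 with vehicle and 1764, 2266 and 1731 with CCl4. Rps24 was at 828, 747 and 774 with vehicle and 1778, 2375 and 1519.8 with CCl4, and Rps15 at 871, 868 and 883 with vehicle and 1663, 2243 and 1477 with CCl4. Rpl23a, which lies where the nascent chain leaves the ribosome, was at 919.7, 913 and 876 with vehicle and 1771, 1879 and 1581 with CCl4. Each was separated between the groups, with log2 differences of 1.07, 1.25, 1.01 and 0.95 relative to the non-mitochondrial total and of -0.02, 0.16, -0.08 and -0.14, none called, with median-ratio scaling. Rps6, the substrate of S6 kinase, was at 365, 336 and 376 with vehicle and 788, 829 and 621 with CCl4 (1.04; median-ratio -0.04). Rps19, mutated in Diamond-Blackfan anaemia, was at 163, 176 and 199 with vehicle and 478, 647 and 445 with CCl4 (1.52; median-ratio 0.44). Rpsa, once named the laminin receptor, was at 277, 283 and 293 with vehicle and 682, 978 and 660.1 with CCl4 (1.42; median-ratio 0.33). In these 3 the lowest CCl4 library was above the highest vehicle library. Rps27a, a fusion with ubiquitin, was at 351, 324 and 339 with vehicle and 809.8, 864 and 662 with CCl4. Rps4x was at 331, 335 and 345 with vehicle and 819.9, 931 and 668 with CCl4. Rpl13a, whose protein can leave the ribosome to silence inflammatory mRNAs, was at 719, 638 and 701 with vehicle and 1328, 1952 and 1408 with CCl4. These 3 were likewise separated, as were 79 of 80 members and 72.8% of all genes tested.

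**Figure D3:**
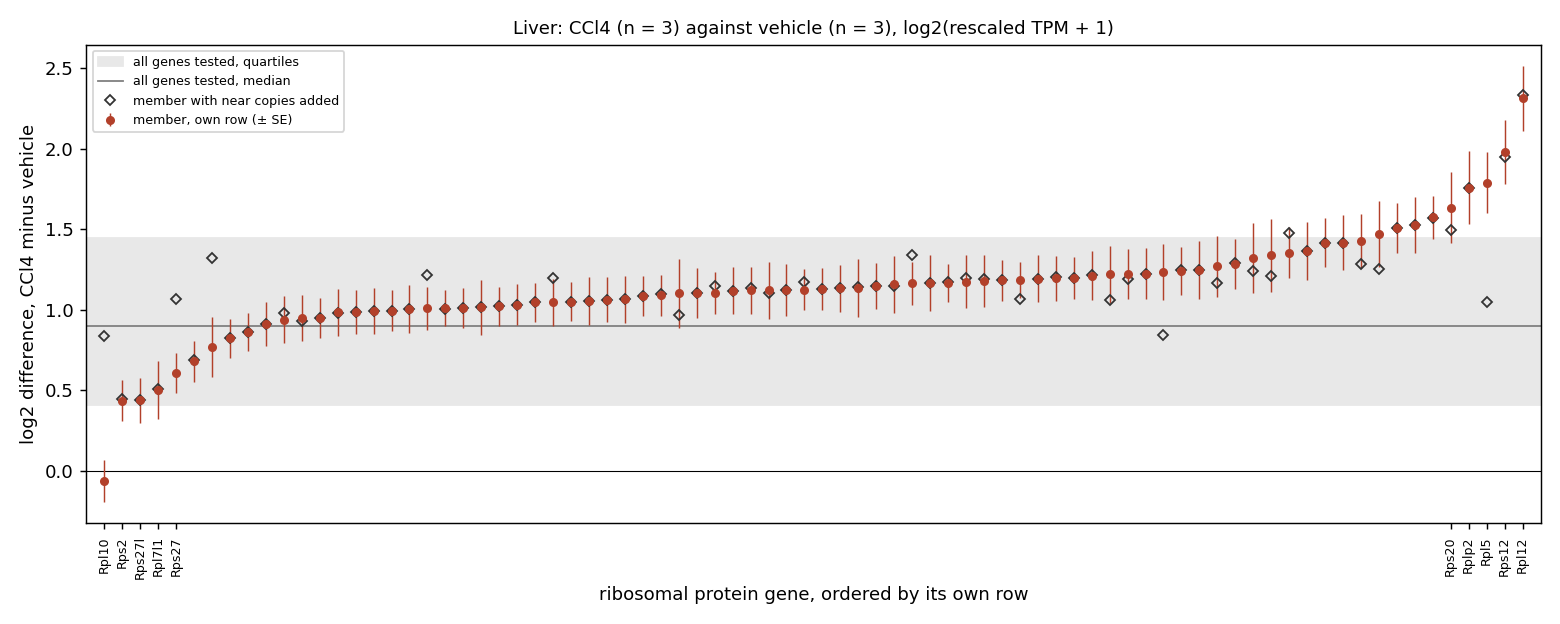
Log2 difference in liver, CCl4 minus vehicle, of the 80 ribosomal protein genes that passed the filter, on log2(rescaled TPM + 1), ordered by their own rows, with the 5 lowest and 5 highest named (points, ± SE from limma, n = 3 per group), with the value after near copies were added (diamonds) and the median and quartiles of all genes tested (line and grey band). The members' quartiles are 1.01 and 1.24, both above the median gene at 0.90, and Rpl10, Rps27 and Rpl5 move toward the rest once their copies are added; as deposited the members' median was -0.58.

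How far each member departed from the rest was read with libraries scaled to the same sum over the members and their copies, a scaling chosen after the values were seen. Of 80 members, 3 were called higher, against 20.6% of all genes: Rpl12 (1.29, SE 0.17, adjusted p = 0.00182), Rps12 (0.84, SE 0.16, adjusted p = 0.00617) and Rplp2 (0.65, SE 0.19, adjusted p = 0.0263). Called lower were 2, against 21.9% of all genes: Rps27l (-0.67, SE 0.23, adjusted p = 0.0492) and Rps2 (-0.66, SE 0.20, adjusted p = 0.0326). The other 75 were not called, which does not show that they kept one proportion. In vehicle liver 21 of 83 members had more than 10% of their summed level in near copies and 12 more than 50%, Rpl5 (89.5%), Rpl27a (85.9%) and Rps23 (85.6%) the most. Of the copies, Gm14303 (a copy of Rps29), Rps23-ps1 and Gm7536 (a copy of Rpl27a) had the highest means over all libraries. In liver Gm14303 was at 500.2, 250.2 and 541 with vehicle and 749, 1345 and 584 with CCl4. Rps23-ps1 was at 588, 521 and 570.5 with vehicle and 1301, 1521 and 1032 with CCl4. Gm7536 was at 732, 766 and 766 with vehicle and 1575, 1521 and 1231 with CCl4. These levels are relative to the non-mitochondrial total, not to the members' sum. By them all 3 copies lay higher in every CCl4 liver than in any vehicle liver, which held for 72.8% of all genes tested.

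Genes that work with the ribosome were read from lists. Of ribosomal protein genes outside the naming rule, all 4 were called higher in liver relative to the non-mitochondrial total (median 0.97). So were 67.8% of all genes tested (median 0.90). With median-ratio scaling 0 of the 4 were called either way (median -0.12), against 21.1% higher and 22.6% lower of all genes. Rack1, a signalling scaffold on the small subunit, was at 154, 162 and 161 with vehicle and 461, 493 and 336 with CCl4 (1.41, SE 0.17, adjusted p = 0.000855). Fau, a ubiquitin-like fusion with a small-subunit protein, was at 295, 274 and 281 with vehicle and 614, 802 and 482 with CCl4 (1.13). Rpl36al, a near twin of Rpl36a, was at 395, 409.6 and 432 with vehicle and 743, 695 and 744 with CCl4 (0.82). With median-ratio scaling the differences of Rack1, Fau and Rpl36al were 0.32, 0.04 and -0.27. These 3 lay within the range of the members.

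Ribosome biogenesis factors, which process ribosomal RNA and assemble the subunits in the nucleolus, were read beside them. All 36 were called higher (median 1.33), and with median-ratio scaling 11 were higher and 0 lower (median 0.31). Of all genes tested, 67.8% were called higher on the first scale, and 21.1% higher and 22.6% lower on the second. Of the 80 members, 5 were higher and 3 lower on the second (median 0.04). Gnl3, the nucleolar GTPase nucleostemin, was at 17.3, 15.9 and 14.3 with vehicle and 86.5, 82.4 and 69.8 with CCl4 (2.26, SE 0.15, adjusted p = 0.000223; median-ratio 1.20, adjusted p = 0.00177). Gar1, of the pseudouridylation complex, was at 13.2, 12.7 and 14.8 with vehicle and 67.3, 71.1 and 50.7 with CCl4 (median-ratio 1.07, adjusted p = 0.00227). Wdr43, a small-subunit processome protein, was at 10.1, 8.64 and 10.5 with vehicle and 41.9, 43.9 and 36.2 with CCl4 (median-ratio 0.92, adjusted p = 0.00422). Eif6, which keeps new large subunits from joining small ones, was at 28.3, 23.9 and 26.2 with vehicle and 127, 89.6 and 96.5 with CCl4 (median-ratio 0.88, adjusted p = 0.0119). All 4 were separated between the groups, as were 72.8% of all genes tested. They were named for their low p in liver, so their separation adds no support. As deposited, 3 of the 36 were called higher and 6 lower, against 10.3% and 51.1% of all genes. The same shares over all genes apply to the lists that follow.

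Elongation factors and other mRNAs with a 5' TOP motif were all called higher (16 of 16, median 1.01), and with median-ratio scaling 3 were higher and 3 lower (median -0.07). The 3 higher were Hnrnpa1 (0.89, adjusted p = 0.00644), Npm1 (0.67, adjusted p = 0.0251) and Nap1l1 (0.57, adjusted p = 0.0311), which encode an RNA-binding protein, a nucleolar chaperone and a histone chaperone. The 3 lower were Eef1a1 (-0.68, adjusted p = 0.0318), Eif4b (-0.62, adjusted p = 0.0156) and Eif4a2 (-0.49, adjusted p = 0.0259), translation factors proper. Eef1a1, which brings aminoacyl-tRNA to the ribosome, was at 3130.0, 2849 and 2969 with vehicle and 4646, 3557 and 3737 with CCl4, and Hnrnpa1 at 40.0, 33.2 and 36.7 with vehicle and 148, 184 and 114 with CCl4. Eef1g was at 84.4, 95.6 and 99.9 with vehicle and 242, 215 and 196 with CCl4 and Eef1b2 at 204, 208 and 224 with vehicle and 476, 439 and 407 with CCl4, both near the members in their difference (1.21 and 1.05).

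Of 14 tested regulators of ribosomal protein synthesis, 12 were called higher and 0 lower, and with median-ratio scaling 2 higher and 1 lower. Myc, a transcription factor that drives ribosome production, was at 11.6, 3.33 and 7.95 with vehicle and 54.0, 56.4 and 44.8 with CCl4, a difference of 2.73 (SE 0.37, adjusted p = 0.00111) and 1.72 (adjusted p = 0.0128) with median-ratio scaling. Eif4ebp2, a translation repressor under mTOR, was the 1 called lower on that scale (-1.20, adjusted p = 0.0023), at 30.4, 36.5 and 33.6 with vehicle and 33.8, 27.3 and 29.4 with CCl4. The S6 kinase gene Rps6kb2 was at 10.6, 7.33 and 8.57 with vehicle and 22.7, 38.0 and 29.9 with CCl4 and Rheb, an activator of mTOR, at 25.7, 22.6 and 24.5 with vehicle and 69.3, 52.8 and 48.9 with CCl4, with median-ratio differences of 0.63 and 0.12, not called. The mitochondrial ribosome, a separate particle made for mitochondrially encoded mRNAs, had 78 nuclear-encoded protein genes tested, of which 41 were called higher and 0 lower (median 0.47), and with median-ratio scaling 1 higher and 36 lower (median -0.57). The difference between these lists and the cytosolic members was not tested. Mrpl18 was the 1 higher, at 34.9, 34.6 and 32.3 with vehicle and 125, 177 and 90.8 with CCl4 (median-ratio 0.79, adjusted p = 0.0133). Mrpl52, Mrpl57 and Mrpl51 had differences of 1.13, 1.02 and 0.92, and 0.05, -0.03 and -0.14 with median-ratio scaling.

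In skin CX3CR1+ cells the members took a somewhat larger part of non-mitochondrial TPM with CCl4, and no single member was called. They summed to 4.71, 4.05 and 4.76% of non-mitochondrial TPM in vehicle replicates 1 to 3 (mean 4.51 ± 0.40, SD, n = 3) and 5.75, 5.35 and 6.51% in CCl4 replicates 1 to 3 (mean 5.87 ± 0.59, SD, n = 3). The groups did not overlap, with or without CCl4 replicate 3, the library with few myeloid markers, which was the highest. Of all 13843 genes tested, limma called 0 (0%), with 290 at an unadjusted p under 0.05 and 0 of the 81 members among them. The members' median log2 difference was 0.38 (quartiles 0.22 to 0.55), beside -0.06 over all genes, and 0.31 without CCl4 replicate 3, beside -0.04. Vehicle libraries moved the gap more: the medians were 0.34 beside 0.14 without vehicle replicate 2, and 0.39 beside -0.26 without vehicle replicate 3. The log2 difference was positive in 79 of 81 members, and in 76 without CCl4 replicate 3. In 24 of 81 members every CCl4 library lay above every vehicle library and in 0 below, whereas 2.52% of all genes tested lay above and 2.78% below. Without CCl4 replicate 3 these were 29 members above and 0 below, against 4.82% and 5.57% of all genes. Values of different members come from the same libraries, so these counts are not 24 separate observations. Where libraries were scaled to the members' own sum with copies, their median was -0.01. That scaling holds the sum equal and so takes out a shared difference by construction.

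The 24 separated members included Rpl6, Rpl7a, Rpl8, Rpl10a, Rpl12, Rpl14, Rpl15, Rpl17, Rpl27, Rpl29, Rpl34, Rpl37, Rplp0, Rps2, Rps3, Rps6, Rps7, Rps9, Rps14, Rps15a, Rps16 and Rps26. Rplp0 was at 883, 777 and 675 with vehicle and 1350.0, 1115 and 1477 with CCl4 (log2 difference 0.75, SE 0.44, and 0.66 without CCl4 replicate 3). Rps6 was at 1000.4, 956 and 643 with vehicle and 1073, 1039 and 1199 with CCl4 (0.37, SE 0.45, and 0.31 without it). Rps2, among the lowest in liver, was at 792, 631 and 549 with vehicle and 1119, 827 and 1112 with CCl4 (0.64, SE 0.46, and 0.56 without it). In each of the 3, every CCl4 library was above every vehicle library. Rpl12 was at 14.8, 12.8 and 22.4 with vehicle and 25.3, 38.5 and 29.3 with CCl4 (0.88, SE 0.58, and 0.91 without it). The smallest unadjusted p of the 81 members was 0.103, and every adjusted p was 1 (limma).

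At the upper end of the skin differences stood Rpl39l, at 4.73, 3.98 and 19.1 with vehicle and 5.22, 11.2 and 95.9 with CCl4 (1.23, SE 1.07). CCl4 replicate 3 carried that value, which was 0.07 without it. Rpl27 was at 264, 230.5 and 252 with vehicle and 346, 483 and 557 with CCl4 (0.86, and 0.72 without that library). Rpl35, a large-subunit protein near the tunnel exit, was at 489, 347 and 924 with vehicle and 642, 1081 and 1149 with CCl4 (0.78 and 0.63). Rpl7l1 was at 58.8, 52.5 and 37.1 with vehicle and 48.0, 76.3 and 164 with CCl4 (0.79 and 0.31). In Rpl35 and Rpl7l1 the groups overlapped. Near copies held 87.8% of the summed Rpl12 level in vehicle skin and 83.0% with CCl4, against 4.38% and 6.16% in liver, and with them its skin difference was 0.47.

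At the lower end, Rps27l was at 2723, 1664 and 1157 with vehicle and 1863, 882 and 1914 with CCl4 (-0.25, SE 0.54). Rpl22l1 was at 204, 204 and 165 with vehicle and 201, 141 and 203 with CCl4 (-0.09), and Rpl22 was at 191, 191 and 169 with vehicle and 203, 171 and 186 with CCl4 (0.02). These 3 had the vehicle and CCl4 libraries intermixed. Rpl10 was at 1098, 899.7 and 431 with vehicle and 1232, 645 and 584 with CCl4 (0.04). Rpl28, a large-subunit protein, was at 174, 220.1 and 229 with vehicle and 181, 231 and 234 with CCl4 (0.05). All 5 had overlapping groups. Without CCl4 replicate 3 their differences were -0.44, -0.17, 0.02, 0.24 and -0.01. The ratio of Rps27l to Rps27 was 1.34, 0.960 and 0.640 with vehicle and 0.677, 0.420 and 1.37 with CCl4 (exact permutation p = 0.70, adjusted 0.70, n = 3 per group). Rps27l was nonetheless among the 4 most abundant members of skin, as were Rps27 and Rps25. Rps27 was at 2032, 1734 and 1808 with vehicle and 2751, 2099 and 1394 with CCl4, and Rps25 at 1715, 1398 and 1639.7 with vehicle and 1811, 1331 and 2297 with CCl4, again with overlapping groups.

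Members with known roles outside or beside the ribosome were followed in skin as in liver. Rplp1 was at 929.5, 729.9 and 1201 with vehicle and 1418, 1139 and 1074 with CCl4 (log2 difference 0.36). Rplp2 was at 874, 617 and 625 with vehicle and 1379, 663 and 663 with CCl4 (0.28), with replicate 1 the highest of each group. Rpl5 was at 13.2, 18.5 and 6.70 with vehicle and 14.8, 16.6 and 27.1 with CCl4 (0.63) and Rpl11 at 225, 197 and 219.6 with vehicle and 284, 202 and 369 with CCl4 (0.37). In all 4 the groups overlapped, and Rplp2, which was high in liver, lay under the members' median here. Rpsa was at 291, 188 and 219 with vehicle and 387, 288 and 305 with CCl4 (0.50). Rps19 was at 842, 767 and 1426 with vehicle and 995, 1605 and 1928 with CCl4 (0.58). Rps27a was at 532, 476 and 518 with vehicle and 619, 477 and 781 with CCl4 (0.27). In each of these 3 the highest library was a CCl4 library. Rpl41 was at 1224, 1179.8 and 1599 with vehicle and 1539, 1481 and 2031 with CCl4 (0.33). Rpl13a was at 578, 566 and 864 with vehicle and 889.8, 1007 and 798 with CCl4 (0.45). Again the groups of these 5 overlapped. Of the paralog partners, Rpl7 was at 472, 434 and 329 with vehicle and 573, 348 and 494 with CCl4. Rpl39 was at 249, 190.3 and 141 with vehicle and 292, 169.8 and 197 with CCl4. Rpl3 was at 457, 549 and 317 with vehicle and 493, 480.2 and 534 with CCl4, and Rps4x at 468, 386 and 334 with vehicle and 518, 396 and 494 with CCl4. Rpl3l reached at most 0.450 and Rpl10l 0.115 in skin.

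**Figure D4:**
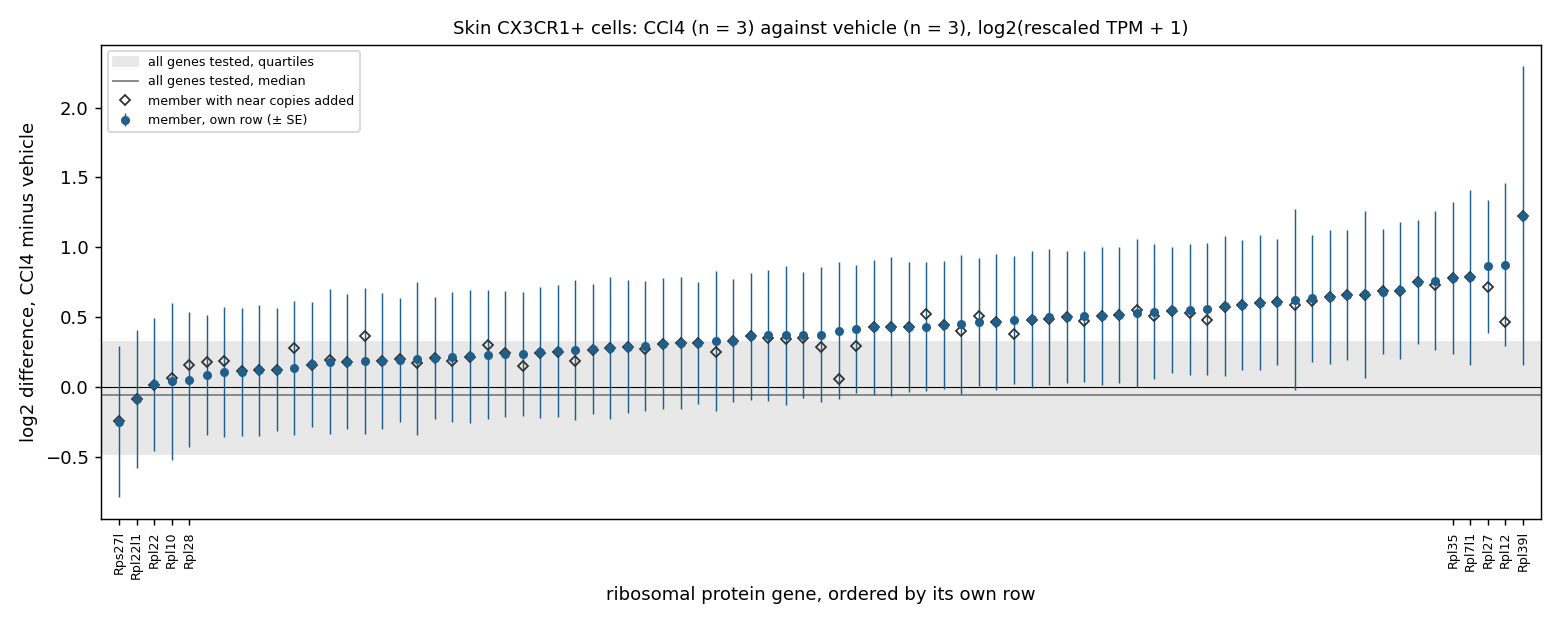
Log2 difference in skin CX3CR1+ cells, CCl4 minus vehicle, of the 81 ribosomal protein genes that passed the filter, drawn and named as for liver with SE from limma (n = 3 per group), values with near copies added as diamonds and the quartiles of all genes tested as a grey band. Of the 81 members 79 lie above 0, with a median of 0.38, and none was called. With the sum of members and copies held equal, which takes out a shared difference by construction, the median was -0.01.

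Related lists in skin had medians of 0.54 for 36 biogenesis factors, 0.37 for the 4 ribosomal protein genes outside the naming rule, 0.34 for 14 regulators, 0.31 for 78 mitochondrial ribosomal protein genes and 0.26 for 16 elongation factors and other TOP mRNAs, with 0 called in each. Myc was at 37.0, 71.5 and 18.9 with vehicle and 41.7, 135 and 151 with CCl4 and Eif6 at 193, 165 and 178 with vehicle and 209.7, 472 and 787 with CCl4, both highest in CCl4 replicate 3. Marker sums differed less evenly between the skin groups, and no marker was called, where 0 of all genes tested were. Macrophage and monocyte markers summed to 10700, 21230 and 26610 with vehicle and 8653, 10780 and 327 with CCl4, and Langerhans and dendritic cell markers to 49690, 46350 and 44030 with vehicle and 30570, 13450 and 182 with CCl4. The 9 T and natural killer cell markers summed to 3334, 1059 and 8372 with vehicle and 3805, 1380 and 2231 with CCl4. Every CCl4 library was below every vehicle library in the Langerhans and dendritic cell sum, whereas the macrophage sums and the T and natural killer cell sums overlapped. Of the 15 macrophage markers Clec4f, a Kupffer cell gene, was listed at 0 in all vehicle libraries. Their part in the members' differences was not tested.

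Differences between liver and skin in the effect of CCl4 were tested directly, in 1 limma model over 12 libraries. Tissue, assay and strain differ together between these groups and cannot be told apart. Of 80 members 2 were called, both with the larger difference in liver, against 7.02% of all 10800 genes called in that direction. Rpl22l1 had a log2 difference of 1.57 in liver and -0.09 in skin (liver minus skin 1.66, SE 0.38, adjusted p = 0.0282), and Rps12 of 1.98 and 0.27 (1.71, SE 0.41, adjusted p = 0.0332). The model shares a residual variance between liver and skin, whose spreads differ. In the fits of each tissue apart, the SE was 0.13 in liver and 0.49 in skin for Rpl22l1. For Rps12 it was 0.20 and 0.50. The skin SE alone thus exceeded that of the difference, so the error of the skin part may be understated. In skin both had groups that overlapped, Rps12 at 105, 129 and 99.5 with vehicle and 148, 148 and 108 with CCl4. Next by p came Rps29 (1.18, adjusted p = 0.0568), Rpl22 (1.19, adjusted p = 0.0616) and Rpl32 (0.97, adjusted p = 0.0746). Over members the median of liver minus skin was 0.75, beside 0.98 over all genes tested. With median-ratio scaling 0 members were called, and Rpl22l1 was at 0.36 and Rps12 at 0.42. Leaving out any 1 liver vehicle library, or liver CCl4 replicate 1 or 2, or skin vehicle replicate 1 or 2, left 0 called. In these fits 0.306% to 4.73% of all genes were called with the larger difference in liver. Leaving out skin vehicle replicate 3 left 22 of 80, against 36.3% of all genes. Leaving out skin CCl4 replicate 1 left 4, against 10.3%. Without skin CCl4 replicate 3 both were still called, at 1.75 and 1.56 (adjusted p = 0.0295 and 0.0475).

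**Figure D5:**
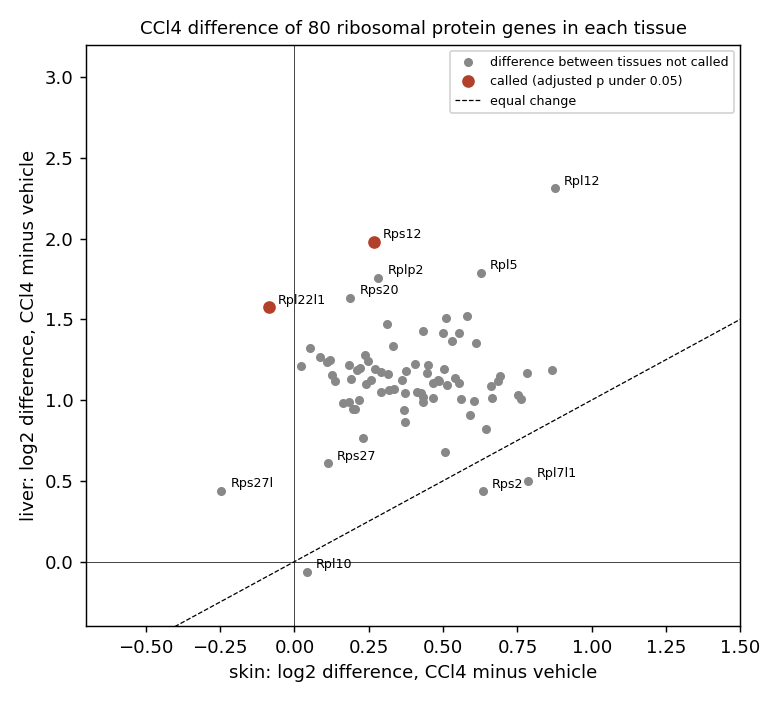
Log2 difference, CCl4 minus vehicle, in liver (vertical axis) against skin CX3CR1+ cells (horizontal axis) for 80 ribosomal protein genes, relative to the non-mitochondrial total, with equal change as a dashed line. Most members lie near 1.13 in liver and 0.38 in skin, and the 2 called as different between tissues, Rps12 and Rpl22l1, are in red; with median-ratio scaling neither was called.

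The order of the members by level was kept more closely within a tissue than between tissues. Over 83 members, Spearman's rho of the mean log2 levels was 0.95 between vehicle and CCl4 liver and 0.98 between vehicle and CCl4 skin, against 0.67 between vehicle liver and vehicle skin, and 0.49 over 77 members with copies added and paralogs left out. Genes are not independent replicates, the libraries of a tissue share assay and strain, and no test is given. In all 4 groups 76 or 77 of 83 members were at 100 or more on average. Rpl10l and Rpl3l were below 20 in every group, Rpl39l in both liver groups and in vehicle skin, Rpl5 in all but CCl4 liver and Rpl12 in both vehicle groups. Among clear differences of level between tissues, Rps27l was at 557, 527 and 564 in vehicle liver and 2723, 1664 and 1157 in vehicle skin. Rps19 was at 163, 176 and 199 in vehicle liver and 842, 767 and 1426 in vehicle skin. Rpl13 was at 205, 207 and 236 in vehicle liver and 1186, 961 and 1504 in vehicle skin. Others were higher in liver. Rps21 was at 666, 640 and 702 in vehicle liver and 223, 215 and 280 in vehicle skin. Rpl7a was at 534, 514 and 525 in vehicle liver and 262, 236 and 196 in vehicle skin. None of these overlapped, and tissue, assay and strain differ together. Rpl13, Rps21 and Rpl7a were named here after their values were seen.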

How the data were processed

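Gene-level TPM values (length-scaled transcript abundances of fixed total) were taken as deposited by the authors for 12 mouse libraries, 3 in each of 4 groups, labelled as separate samples that the design text calls biological replicates, so p-values measure the spread between these samples. Fastp, HISAT2, StringTie, RSEM and the GRCm39 build are named in the submitters' processing notes, without versions. Read depth is unknown, since TPM keeps none. The 1 extraction and library protocol in the labels, poly(A) selection with stranded libraries, covers liver and skin and does not describe smart-seq.

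From these values, TPM were rescaled to the same total per library after leaving out 37 mt- genes and 11 near-copy pseudogenes of them (at least 95% identity over at least 80% of the length). Of 57180 rows, 51884 had a symbol in the name table. Near copies of members were rows with at least 90% identity over at least 80% of the length, or with a pseudogene symbol of the member (BLAST+ 2.17.0 against GENCODE M21 transcripts): 1215 rows, at least 1 for 80 of 83 members. Since reads can be split between a member and its copies, values are also given with copies added. Differences were tested with limma 3.58.1 (R 4.3.3) on log2(rescaled TPM + 1), which understates changes of low genes, in each tissue apart, for genes at 1 or more in at least 3 of 6 libraries, with Benjamini-Hochberg adjustment over all genes tested (threshold 0.05). The effect in liver minus that in skin was tested in 1 model with 4 group means. The procedure was tested on simulated data. Paralog ratios were compared by exact permutation tests, which cannot go below 0.1 with 3 against 3.

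Alternatives were other scalings (as deposited, without mt- genes only, without the top 10 genes of each library, without the members in the total, median-ratio, quantile), pseudocounts of 0.1 and 5, no filter and a filter at 5, copies added, a replicate block, 1 fit over 12 libraries, robust variance, and each library left out. Scaling to the members' sum, with and without copies, was chosen after seeing the data. Members and gene lists were chosen with earlier results of these data known. Named members were the 5 highest and 5 lowest differences among those with a mean of at least 5 and the 4 most abundant in each tissue, the paralogs with their partners, a fixed list of members by role, the 4 genes of lowest p in each related list, the 5 lowest p between tissues and the 3 most abundant copies. Others named were chosen after their values were seen. A few genes are counted but not reported here by name.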

Additional observations from a re-analysis of the deposited data

Results flagged for a closer look

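The effect of CCl4 differed between liver and skin for 2 of 80 ribosomal protein genes by a test of the difference itself, both larger in liver, a smaller share than the 7.02% of all 10800 genes called in that direction. The count was 0 without any 1 liver vehicle library, liver CCl4 replicate 1 or 2, or skin vehicle replicate 1 or 2. It was 22 without skin vehicle replicate 3, where 36.3% of all genes were called in that direction. For Rpl22l1 the log2 difference in liver exceeded that in skin by 1.66 (limma, adjusted p = 0.0282), with CCl4 above vehicle in 3 of 3 liver libraries and overlapping groups in skin. For Rps12 the excess was 1.71 (limma, adjusted p = 0.0332), with the same pattern over libraries. The test shares a residual variance between liver and skin. For both genes its SE (0.38 and 0.41) was below that of the skin fit alone (0.49 and 0.50), so the error may be understated. With quantile normalization neither was called, at 1.24 each (adjusted p = 0.151 and 0.170), and with median-ratio scaling they stood at 0.36 and 0.42 (adjusted p = 0.707 and 0.649). The liver and skin groups also differ in assay and mouse strain, which cannot be told apart from tissue.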

How the results depend on the processing

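The scale decided the liver result. The 79 members called higher became 1 as deposited, 7 without mt- genes only, 5 with median-ratio scaling, 7 with the members' sum held equal and 3 with the sum of members and copies; it was 74 with quantile normalization. Over all genes the shares called higher were 67.8% at first and 10.3%, 23.9%, 21.1%, 20.9%, 20.6% and 18% under these scalings in that order. Members called lower, 0 of 80, became 13, 1, 3, 4 and 2 under those 5 scalings in that order, and 1 each with quantile normalization and without the top genes. The liver median of 1.13 became -0.58, 0.23, 0.036, 0.040 and 0.027 under the same 5, and 0.81 and 0.79 with quantile normalization and without the top genes. In skin the median of 0.38, beside -0.06 over all genes, became 0.45 with median-ratio scaling, beside 0.02. Quantile normalization gave 0.27, beside 0.05, with 71 of 81 members positive, against 79. The fit over 12 libraries gave 15 of 81 skin members an unadjusted p under 0.05 (limma), as for 952 of 13843 genes, and called 0 members. The skin median was -0.003 and -0.012 with the members' sum and with copies. In both tissues these sums take out a shared difference by construction. The 2 members that differed between tissues became 0 as deposited, without mt- genes only, with median-ratio scaling, quantile normalization and both members' sums. They became 4 with a pseudocount of 0.1, where 11.5% of all genes were called with the larger difference in liver. Leaving out each library gave 76 to 79 higher and 0 lower in liver, against 55.7% to 65% and 1.83% to 5.79% of all genes. Medians were 1.05 to 1.24 in liver and 0.31 to 0.46 in skin. From 0 to 22 members differed between tissues. The 22 were reached without skin vehicle replicate 3, where 36.3% of all genes were called with the larger difference in liver. With the replicate block 77 liver members were higher and 0 lower, against 65% and 3.41% of all genes. With it 2 members differed between tissues, against 13% of all genes called with the larger difference in liver. Libraries sharing a replicate number in their titles did not deviate together throughout (r = -0.012, 0.069 and 0.032 in liver, 0.586, 0.094 and 0.351 in skin). The title numbers were therefore not taken as pairs. The submitters' library names carry other numbers for skin vehicle replicates 2 and 3 and for replicate 3 of both CCl4 groups. Pairing by those names was not checked, and the replicate block used the title numbers. 

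Directions of single members turned as follows, and the cause was not tested beyond what each scaling does by construction. As deposited, liver differences were -1.27 for Rps2, -1.26 for Rps27l, -1.10 for Rpl7l1, -1.10 for Rps27, -0.066 for Rps20, -0.13 for Rpl22l1, -0.49 for Rpl22 and -0.67 for Rplp0, and liver minus skin was -0.055 for Rpl22l1, -0.004 for Rps12, -0.54 for Rps29, -0.53 for Rpl22 and -0.74 for Rpl32. Without mt- genes only, Rps2, Rps27l, Rpl7l1 and Rps27 were at -0.46, -0.46, -0.36 and -0.29 in liver. With median-ratio scaling the same 4 were at -0.65, -0.65, -0.56 and -0.48 and Rplp0 at -0.057, and liver minus skin was -0.12 for Rps29, -0.11 for Rpl22 and -0.33 for Rpl32. With quantile normalization Rpl7l1 was at -0.39 in liver, and Rpl22, Rpl10 and Rpl28 at -0.061, -0.14 and -0.038 in skin; without the top genes these 3 were at -0.051, -0.031 and -0.019. With the members' sum, Rps2, Rps27l, Rpl7l1, Rps27 and Rplp0 were at -0.65, -0.65, -0.55, -0.48 and -0.053 in liver, and Rpl22, Rpl10, Rpl28 and Rps12 at -0.36, -0.34, -0.33 and -0.11 in skin. With copies in that sum, Rps2, Rps27l, Rpl7l1, Rps27, Rpl5 and Rplp0 were at -0.66, -0.67, -0.57, -0.038, -0.054 and -0.073 in liver, and Rpl22, Rpl10, Rpl28 and Rps12 at -0.34, -0.30, -0.20 and -0.18 in skin. Copies alone took Rpl10 to 0.84 in liver. Without both skin replicates 1, Rpl22 and Rpl10 were at -0.012 and -0.022. Over libraries left out, Rpl10 ran from -0.13 to 0.008 in liver, and in skin Rps27l from -0.54 to 0.12, Rpl22l1 from -0.19 to 0.087, Rpl22 from -0.041 to 0.080, Rpl10 from -0.36 to 0.31 and Rpl28 from -0.068 to 0.17. With depth unknown, counting error could not be given, and 3 libraries per group limit the precision.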
